A study of Mus musculus with 250 samples.

Results

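Connexins are the subunits of gap junctions, and 4 connexin genes of the epidermis, Gja1, Gjb2, Gjb5 and Gjb6, were described here. They were taken by symbol from a count table of 27003 genes, and were chosen by name with read values of these same cells in view, among them the ratio of Gja1 between distal and wound bed cells. All 4 had a row. Single cells were sequenced by Smart-Seq2, which covers whole transcripts, and the set held 250 epidermal cells from the tail of mice of genotype Lrig1CreER/Rosa-TdTomato. All were sorted for the Lrig1 lineage label, made by CreER expressed from Lrig1, a gene of upper hair follicle stem cells, and for surface Sca1, and all were labelled 8 weeks with a further abbreviation (pw1) that is not spelled out. There were 84 control cells from a region without memory (28 in batch 1 and 56 in batch 2), 81 cells from the distal memory region (32 and 49) and 85 from the wound bed (30 and 55). The labels give each batch of a region its own plate, which made 6 plates, and no animal is named. Each region was therefore treated as a single sample, with no test of one region against another. Every difference below is a description of these cells, and a plate and its region cannot be told apart within a batch.

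Connexin subunits assemble into a half-channel in the membrane of each cell, and half-channels of neighbouring cells dock to form a pore for ions and small molecules. Different connexins can share a channel, and the mix of subunits sets which molecules pass. Gja1 encodes connexin 43, the connexin found most widely in the epidermis, where it joins basal and spinous cells. Gjb2 (connexin 26) and Gjb6 (connexin 30) are low in resting epidermis between follicles and are known to be induced in wounded and hyperproliferative skin. Gjb5 encodes connexin 31.1, which in rodent skin belongs to the differentiating layers.

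In the mouse genome (GRCm38, GENCODE M21) these genes lie at 3 places. Gja1 stands on chromosome 10 at 56377330 to 56402513 on the plus strand, away from the others. Gjb2 (57098600 to 57104702) and Gjb6 (57123303 to 57133611) are neighbours on the minus strand of chromosome 14, with 18600 bases between them. Gjb5 (127354809 to 127358181) lies on the minus strand of chromosome 4. The longest coding transcripts used for values per kilobase were 3182 bases for Gja1, 2406 for Gjb2, 1721 for Gjb5 and 2105 for Gjb6.

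The 250 bases before the RefSeq start of each gene (GRCm38.p6) are shown because the members did not share one pattern over the regions. Capitals mark matches on either strand to 3 motifs that were searched, the AP-1 site TGANTCA, the GC box GGGCGG and the TATA box TATAAA.
Gja1: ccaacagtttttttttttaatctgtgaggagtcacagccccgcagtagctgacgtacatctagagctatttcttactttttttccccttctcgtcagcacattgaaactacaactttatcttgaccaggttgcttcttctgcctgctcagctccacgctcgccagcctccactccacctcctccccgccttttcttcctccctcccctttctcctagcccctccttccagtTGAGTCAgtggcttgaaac
Gjb2: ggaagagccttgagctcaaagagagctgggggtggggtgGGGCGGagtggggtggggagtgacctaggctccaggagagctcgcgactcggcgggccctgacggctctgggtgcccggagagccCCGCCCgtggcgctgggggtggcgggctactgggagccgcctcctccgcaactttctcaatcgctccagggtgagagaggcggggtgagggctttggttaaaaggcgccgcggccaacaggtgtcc
Gjb5: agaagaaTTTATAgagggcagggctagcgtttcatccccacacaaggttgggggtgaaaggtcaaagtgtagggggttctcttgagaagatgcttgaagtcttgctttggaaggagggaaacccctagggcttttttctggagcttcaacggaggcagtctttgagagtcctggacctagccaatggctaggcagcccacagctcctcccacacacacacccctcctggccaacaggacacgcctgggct
Gjb6: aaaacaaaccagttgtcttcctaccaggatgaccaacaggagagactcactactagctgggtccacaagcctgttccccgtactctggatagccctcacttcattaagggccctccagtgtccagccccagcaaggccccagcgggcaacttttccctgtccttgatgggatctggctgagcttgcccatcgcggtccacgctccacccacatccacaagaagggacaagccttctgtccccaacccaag
The intervals are chr10:56377050-56377299 on the plus strand for Gja1 and, on the minus strand, chr14:57104703-57104952 for Gjb2, chr4:127358165-127358414 for Gjb5 and chr14:57133612-57133861 for Gjb6. The Gja1 promoter held a single AP-1 match, TGAGTCA, whose first base lies 19 bases before the start, and AP-1 matches were present in 6.749% of 32851 promoter windows of the same length. Gjb2 had GC boxes at 211 and 126 bases before its start, a motif in 32.74% of windows. It was also the richest of these promoters in G and C, at 69.2%, against 50% for Gja1, 54.4% for Gjb5, 56.8% for Gjb6 and a median of 52.4% over all windows. The Gjb5 window had a TATA box match on the reverse strand (TTTATA) 243 bases before the start, a motif in 12.37% of windows. The Gjb6 window held none of these letters. A match describes the letters and not the binding of a factor.

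Depth differed between plates, from 1751116 reads in wound bed batch 1 to 10671470 in distal batch 1, where 4 cells over 500000 reads held 72.8% of the reads. The shallowest cell had 3857 reads, the median cell 49298 and the deepest 3119120, and the median number of detected genes ranged from 1446 to 2093.5 between plates. Shares of cells are therefore also given after thinning each cell to 10000 reads, which kept 83 control, 77 distal and 78 wound bed cells and left out 12. Over 5% of non-mitochondrial reads fell on predicted genes with Gm numbers in 23 of 28 and 8 of 56 control cells, 5 of 32 and 16 of 49 distal cells, and 2 of 30 and 3 of 55 wound bed cells. Such cells are called repeat-rich below. At least 1 of 10 basal epidermis genes was read in 93.8 to 100% of the cells of each plate. No gene of the melanocyte, T cell, Langerhans cell, fibroblast and endothelium lists passed the detection filter given below, and Tyr, Cd3e, Cd207, Pdgfra and Cdh5 had 0 reads in all plates. The highest sum of such a list was 288 CPM, the usual normalised read count after scaling, of melanocyte genes in distal batch 1. Other genes of these lists did have reads. Fibroblast genes were read in 5 of 28 cells of control batch 1 (91.9 CPM) and 5 of 32 of distal batch 1. Endothelium genes were read in 3 of 28 cells of control batch 1, and T cell genes in 1 of 49 of distal batch 2 (35.9 CPM). Intervals are exact 95% intervals (Clopper-Pearson for shares) and cover counting error only, as this method counts PCR copies and not molecules.

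Gja1 was the most often read of the 4 connexins, and the wound bed was where it was most often read. Its reads numbered 1657 and 937 in control batches 1 and 2, 116 and 242 in the distal plates and 1459 and 2181 in the wound bed plates. These correspond to 470 and 187 CPM in the control plates, 15.3 and 68.4 CPM in the distal plates and 807 and 658 CPM in the wound bed plates. The plates of the 3 regions did not overlap in this level, with both wound bed plates highest and both distal plates lowest. Per cell the regions did overlap, as each held cells without a Gja1 read. The median wound bed cell had 173 CPM and the median control or distal cell 0, and the highest had 5289 CPM in control, 1010 among distal and 6417 among wound bed cells.

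**Figure D1:**
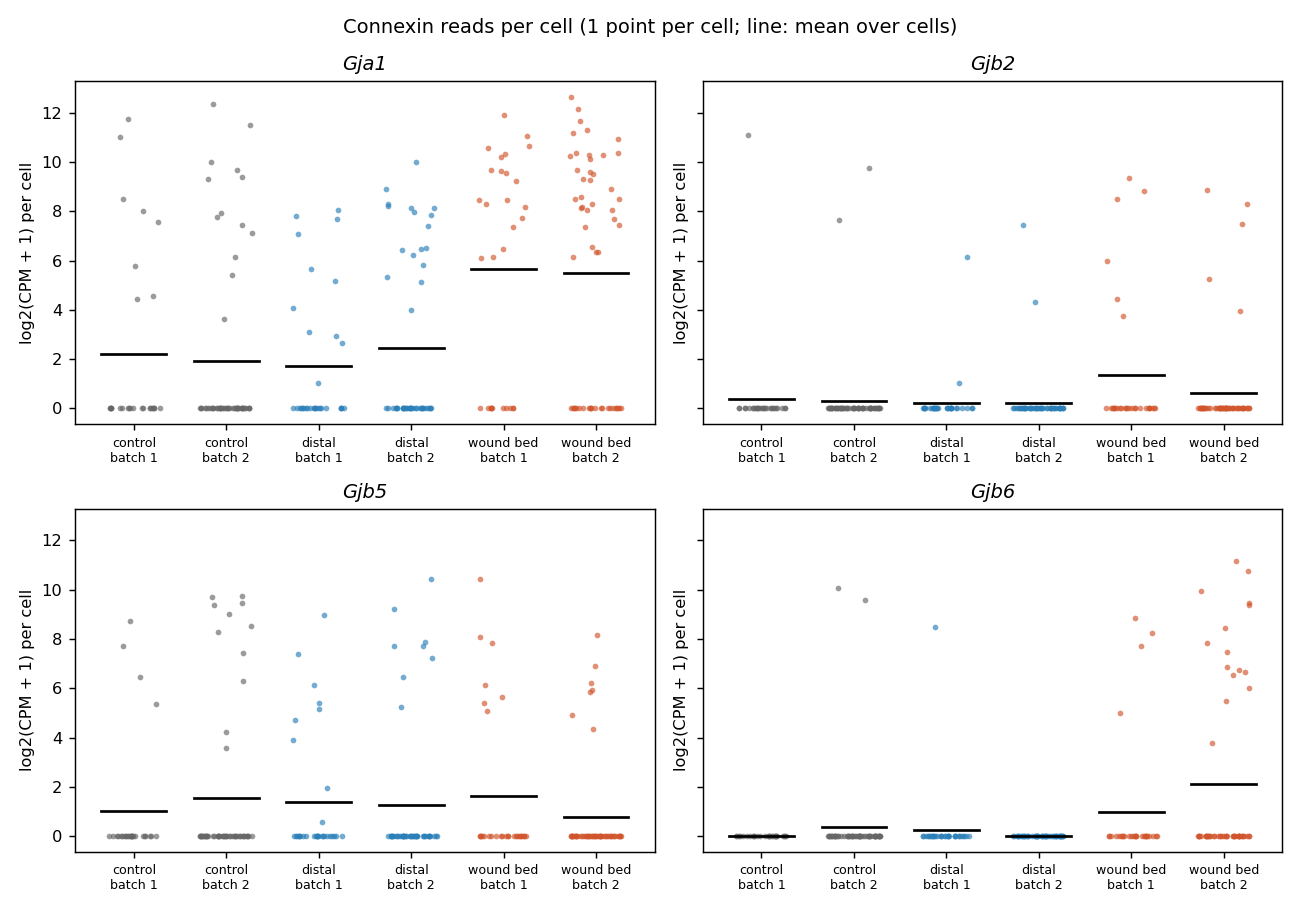
Reads of each connexin per cell as log2(CPM + 1), 1 point per cell, for control (grey), distal memory (blue) and wound bed (orange) cells in each batch; the line is the mean over cells. Gja1 points above 0 fill more of the wound bed columns (19 of 30 and 33 of 55 cells) than of the control columns (8 of 28 and 13 of 56).

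The share of cells with a Gja1 read and the amount read in those cells did not order the regions alike. A read was present in 25% of control cells (8 of 28 and 13 of 56), 34.6% of distal cells (11 of 32 and 17 of 49) and 61.2% of cells in the wound bed (19 of 30 and 33 of 55). At 10000 reads per cell the shares were 18.1% (interval 10.5 to 28%), 20.8% (12.4 to 31.5%) and 57.7% (46 to 68.8%). The wound bed interval lay above both others, while those of control and distal cells overlapped. Among cells with a read, the median level was 242 CPM in control (21 cells), 88.8 CPM in the distal region (28 cells) and 610 CPM in the wound bed (52 cells). These medians are of all reads and not at equal depth. By batch, the thinned shares of distal and control cells went opposite ways, with 9.4% against 21.4% in batch 1 and 28.9% against 16.4% in batch 2. By plate the medians were 222 and 242 CPM in the control plates, 34.7 and 167 CPM in the distal plates and 598 and 622 CPM in the wound bed plates. At least 100 CPM was reached in 17.9% of control, 16% of distal and 52.9% of wound bed cells.

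**Figure D2:**
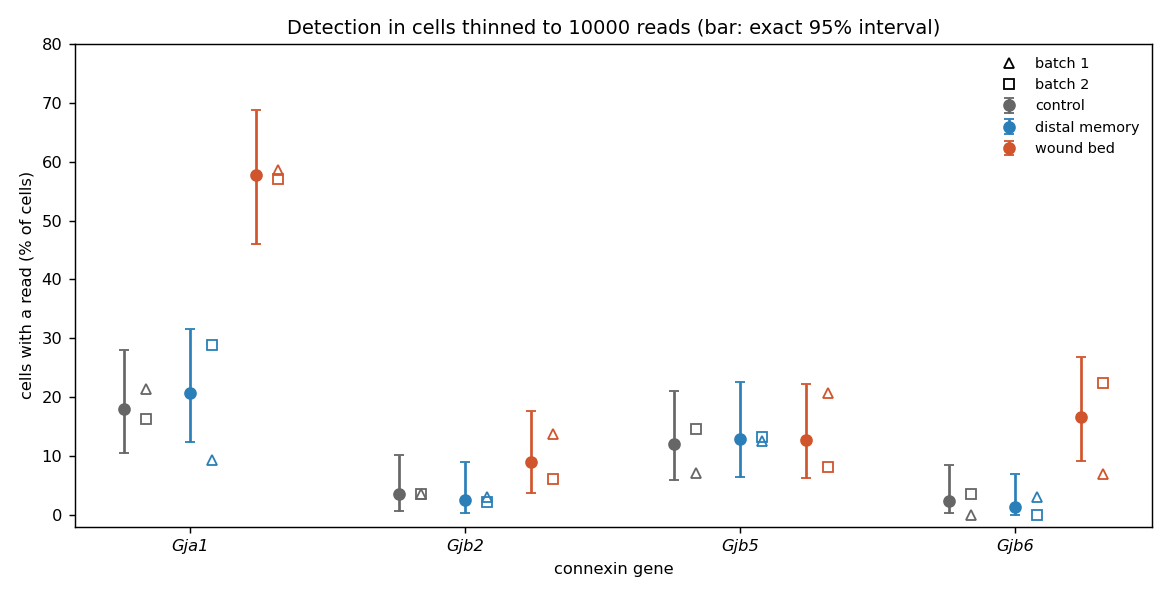
Percentage of cells with a read of each connexin after thinning to 10000 reads, for control (grey), distal memory (blue) and wound bed (orange) cells; filled points are both batches with exact 95% intervals, and open triangles and squares are batches 1 and 2. For Gja1 the wound bed interval (46 to 68.8%) lies above those of control cells (10.5 to 28%) and distal cells (12.4 to 31.5%).

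Ratios between regions were taken within each batch as log2 of scaled CPM plus 1, and are given for batch 1 then batch 2. A gene entered a comparison, and is called considered, if 10% or more of the cells in a compared region carried reads of it, batch by batch. The size rule asked for ratios of 1 or more in size in both batches, with the same sign. Of the 4 connexins, 3 were considered for wound bed against control cells and only Gjb6 met the rule, as higher. Among all 5776 genes considered there, 7.83% met it as higher and 8.24% as lower. For distal against control cells 2 connexins were considered and Gja1 met the rule as lower, beside 6.09% of 6356 genes. For distal against wound bed cells 3 were considered, and Gja1 and Gjb6 met it as lower, beside 5.28% of 6285 genes. The connexins were chosen with such results known, so nothing is read from these counts. Each pair of comparisons shares the plates of a region, so the ratios of one are not independent of those of another.

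For Gja1 the ratios were 0.78 and 1.81 in wound bed against control cells, so that batch 1 fell short of the rule. A single control cell of batch 1 held 1390 of the plate's 1657 Gja1 reads (83.9%), at 3439 CPM. This cell had 404232 reads in all and was repeat-rich. The other 27 cells of that plate held 267 Gja1 reads. Without the cell richest in Gja1 in each plate, the ratios were 3.07 and 1.91, and Gja1 met the rule. It also met the rule with total counts in place of TMM scaling (1.17 and 1.69), with every cell weighted equally (1.05 and 1.79), in thinned cells (1.37 and 1.85) and without repeat-rich cells (2.63 and 1.72). It did not in cells with at least 2000 genes (0.16 and 1.18).

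Distal cells had less Gja1 than control cells by -4.85 and -1.44 on the log2 scale. This was 30.6-fold in batch 1 (counting interval 25.4 to 37.3) and 2.74-fold in batch 2 (2.38 to 3.17). Without the richest cell of each plate the ratios were -2.75 and -1.51. Without repeat-rich cells they were -3.47 and -0.91, and the rule was not met. Against the wound bed, the counting intervals of the distal deficit were 43.5 to 64.1-fold in batch 1 and 8.42 to 11-fold in batch 2. Leaving out the richest cells gave -5.82 and -3.43 there, which kept the size rule met. These folds are of summed reads, and 4 cells held 72.8% of all reads of distal batch 1. Averaged over cells before TMM scaling, Gja1 stood at 229 and 218 CPM in control and 29.5 and 76.9 CPM in distal plates. The wound bed plates had 546 and 650 CPM. In batch 1 the distal deficit was thus smaller per cell than in summed reads, against both regions.

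**Figure D3:**
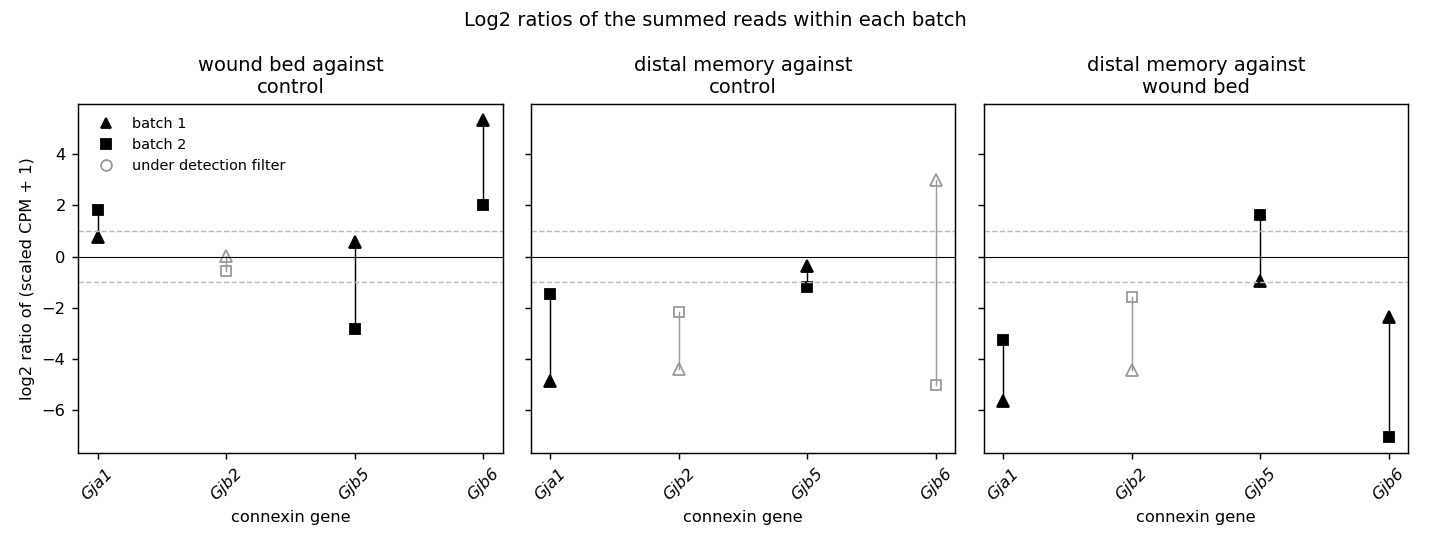
Log2 ratios of scaled CPM plus 1 for the 4 connexins in 3 comparisons, with batch 1 as triangles and batch 2 as squares joined by a line; open grey symbols are genes under the detection filter and dashed lines mark a size of 1. Gja1 lies below -1 in both batches in the comparisons of distal cells, and Gjb6 lies above 1 in both batches for wound bed against control cells.

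Most cells with a Gjb6 read, 19 of 22, were wound bed cells. Its reads numbered 0 and 157 in the control plates, 52 and 0 in the distal plates and 72 and 435 in the wound bed plates, and levels were 0 and 31.4, 6.87 and 0, and 39.8 and 131 CPM. Reads came from 2 of 84 control cells (2.4%, interval 0.3 to 8.3%), 1 of 81 distal cells (1.2%, 0.03 to 6.7%) and 19 of 85 cells in the wound bed (22.4%, 14 to 32.7%). The share of control cells in batch 1 could be up to 10.7% and that of distal cells in batch 2 up to 6.12%, by the limit of 3 counts that a count of 0 in 28 and 49 cells allows. The exact intervals of those shares reach 12.3% and 7.25%. Those 3 cells outside the wound bed were not low in Gjb6, as they held 39, 118 and 52 reads. The wound bed cells held from 1 to 162 reads, with a median of 13. Wound bed plates stood above all others in level, though batch 1 (39.8 CPM) lay close to control batch 2 (31.4 CPM).

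Against control, wound bed cells had at least 46.8-fold more Gjb6 in batch 1, computed against a floor of 3 counts for the plate without reads, and 4.18-fold more in batch 2 (3.48 to 5.05). The log2 ratios were 5.35 and 2.03, and 4.02 and 3.25 without the richest cells. In thinned cells the ratios were 4.53 and 2.73, but only 2 of 29 wound bed cells of batch 1 then had a read, which is under the detection filter. At 10000 reads the shares were 2.4% of control, 1.3% of distal and 16.7% of wound bed cells (9.2 to 26.8%). By batch the wound bed share was 6.9% (2 of 29 cells) and 22.4% (11 of 49). Distal cells had 5.79-fold less than wound bed cells in batch 1 (4 to 8.44) and at least 155-fold less in batch 2. The batch 1 ratio of -2.37 rested on 1 distal cell with 52 reads. It was -0.66 in thinned cells and -1 without cells over 500000 reads, and -4.02 without the richest cell of each plate.

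Gjb2, the neighbour of Gjb6, was the least often read of the members. It had 138 and 61 reads in the control plates, 7 and 7 in the distal plates and 72 and 26 in the wound bed plates, or 39.1 and 12.2, 0.93 and 1.98, and 39.8 and 7.85 CPM. All 138 reads of control batch 1 came from 1 cell, and all 61 of batch 2 from 2 cells. The number of cells with a read was 1 and 2 in the control plates, 2 and 2 in the distal plates and 6 and 5 in the wound bed plates. As a share of cells this was 3.6% (0.7 to 10.1%), 4.9% (1.4 to 12.2%) and 12.9% (6.6 to 22%), with overlapping intervals. The 199 control reads thus came from 3 cells with 22 to 138 reads each, and the 98 reads of the wound bed from 11 cells with a median of 3. In batch 1 the levels of both regions were close, and in batch 2 control was higher. Gjb2 was under the detection filter in every comparison. Its fold between wound bed and control cells was 1.02 in batch 1, higher in the wound bed (counting interval 0.75 to 1.36), and 1.55 in batch 2, higher in control (0.97 to 2.56). Without the richest cell of each plate the log2 ratios were 4.70 and -0.13, so that the batches again did not go the same way.

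Gjb5 was read in similar shares of cells in the 3 regions. Reads numbered 67 and 368 in the control plates, 109 and 113 in the distal plates and 52 and 32 in the wound bed plates. The levels of 19 and 73.6, 14.4 and 31.9, and 28.8 and 9.66 CPM overlapped between all regions. Cells with a read made up 17.9% of control (15 cells), 21% of distal (17) and 16.5% of wound bed cells (14), and 12%, 13% and 12.8% at 10000 reads. The intervals at that depth, 5.9 to 21%, 6.4 to 22.6% and 6.3 to 22.3%, would hold differences of several-fold. The ratios for wound bed against control cells had opposite signs (0.57 and -2.81), as did those for distal against wound bed cells (-0.95 and 1.63). For distal against control cells they were -0.38 and -1.18. Gjb5 met the size rule in no comparison.

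Among other connexins with a row, Gja3, Gja6, Gja10, Gjc1, Gjd3 and Gje1 had at most 12 reads each over all cells, and Gjb1, Gjc3, Gjd2 and Gjd4 had none.

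Levels of the 4 connexins were compared with each other per kilobase of transcript, as scaled CPM per kb. In the wound bed Gja1 was highest in both batches (254 and 207), followed by Gjb6 (18.9 and 62.4). Gjb5 stood at 16.7 and 5.61 there, and Gjb2 at 16.5 and 3.26. In control Gja1 was also highest, at 148 in batch 1, where 1 cell held most of its reads, and 58.9 in batch 2. The control level of Gjb5 was 11 and 42.8, that of Gjb2 was 16.3 and 5.07, and that of Gjb6 was 14.9 in batch 2, with no read in batch 1. In the distal region Gja1 and Gjb5 were close, with Gjb5 higher in batch 1 (8.37 against 4.82) and Gja1 in batch 2 (21.5 against 18.6). Distal Gjb2 stood at 0.38 and 0.82, and distal Gjb6 at 3.27 in batch 1. Gja1 thus exceeded each of the other members in both batches of the wound bed and of control, but not in both batches of the distal region. These orders are of summed reads. Averaged over cells before TMM scaling, distal Gjb5 was above Gja1 in both batches (15.4 against 9.26 and 34.5 against 24.2 CPM per kb).

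**Figure D4:**
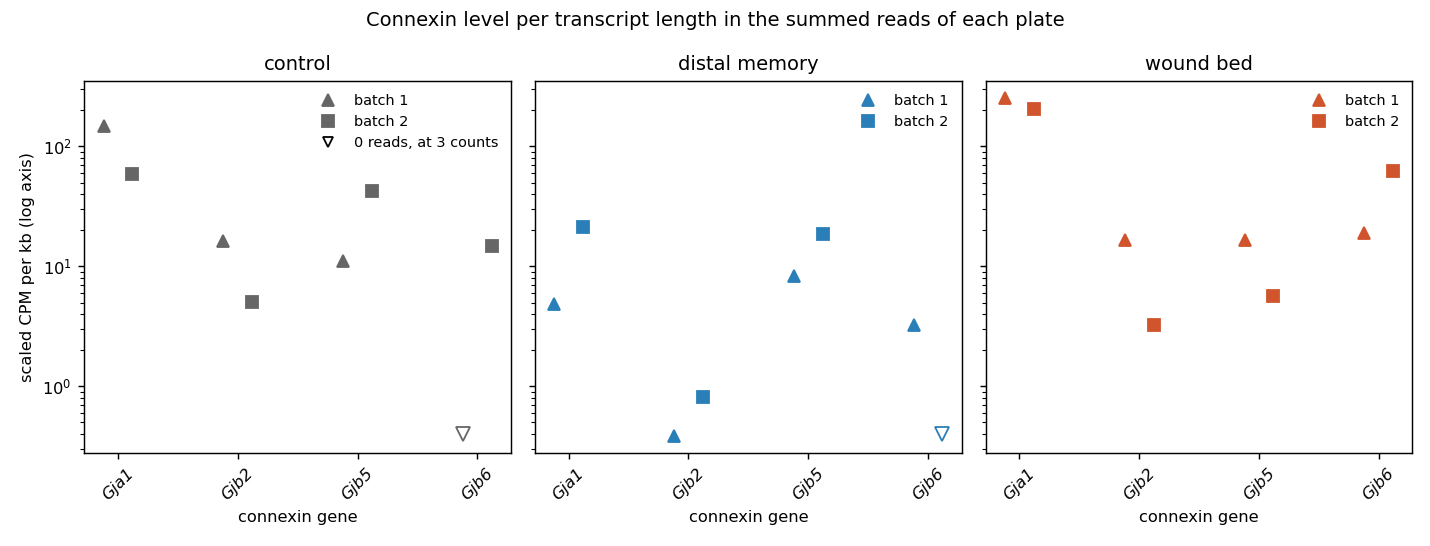
Scaled CPM per kilobase of transcript on a log axis for the 4 connexins in the summed reads of each plate, with batch 1 as triangles, batch 2 as squares and plates without reads as open inverted triangles at 3 counts. Gja1 (254 and 207) is the highest symbol in the wound bed, and in the distal region Gja1 (4.82 and 21.5) and Gjb5 (8.37 and 18.6) lie close together.

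The number of member connexins read in a cell also differed between regions. At 10000 reads, none of the 4 was read in 72.3% of control (61.4 to 81.6%), 66.2% of distal (54.6 to 76.6%) and 33.3% of wound bed cells (23.1 to 44.9%). Exactly 1 was read in 24.1%, 29.9% and 42.3%. In the wound bed 15 cells had reads of 2 members and 4 cells of 3, out of 78. In control 2 cells had 3 and 1 had all 4, out of 83, and in the distal region 3 cells had 2, out of 77. The control cell with all 4 held 27 reads of Gja1, 22 of Gjb2, 19 of Gjb5 and 118 of Gjb6 among 111661 reads. Without thinning 2 wound bed cells also had reads of all 4. No doublets were called, and the part of mixed cells in these counts was not tested.

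Cells with Gjb6 reads mostly had Gja1 reads as well. Over the 238 thinned cells, 12 of 16 cells with Gjb6 also had Gja1 (75%, 47.6 to 92.7%), against 64 of 222 cells without Gjb6 (28.8%, 23 to 35.3%). Since both were read most often in the wound bed, that region was also taken alone. There 11 of 13 Gjb6 cells had Gja1 (84.6%, 54.6 to 98.1%), against 34 of 65 others (52.3%, 39.5 to 64.9%), and these intervals overlapped. Read the other way, Gjb6 was present in 2 of 17 Gja1 cells and 0 of 12 others in wound bed batch 1, and in 9 of 28 and 2 of 21 in batch 2. Spearman's rho over cells, which share plate and depth, was 0.20 (29 cells) and 0.34 (49 cells) in those plates. Median depth before thinning was close, at 54558 reads in cells with Gjb6 and 54247 in cells without.

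In the thinned cells Gjb2 was likewise read mostly beside Gja1, in 9 of 12 cells (75%, 42.8 to 94.5%) against 67 of 226 cells without Gjb2 (29.6%, 23.8 to 36.1%). All 3 control cells with Gjb2 had both Gja1 and Gjb5. Of the distal cells with Gjb2, 0 of 2 had Gja1. In the wound bed, 6 of 7 Gjb2 cells had Gja1 (42.1 to 99.6%), against 39 of 71 cells without Gjb2 (54.9%, 42.7 to 66.8%). These intervals overlapped. None of the 7 had Gjb5 at that depth, although the 2 wound bed cells with all 4 members before thinning had both. Reads of both Gjb2 and Gjb6 were in 2 of the thinned cells. For Gjb5 the shares with Gja1 were 40% of 30 cells with it (22.7 to 59.4%) and 30.8% of 208 cells without (24.6 to 37.5%).

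**Figure D5:**
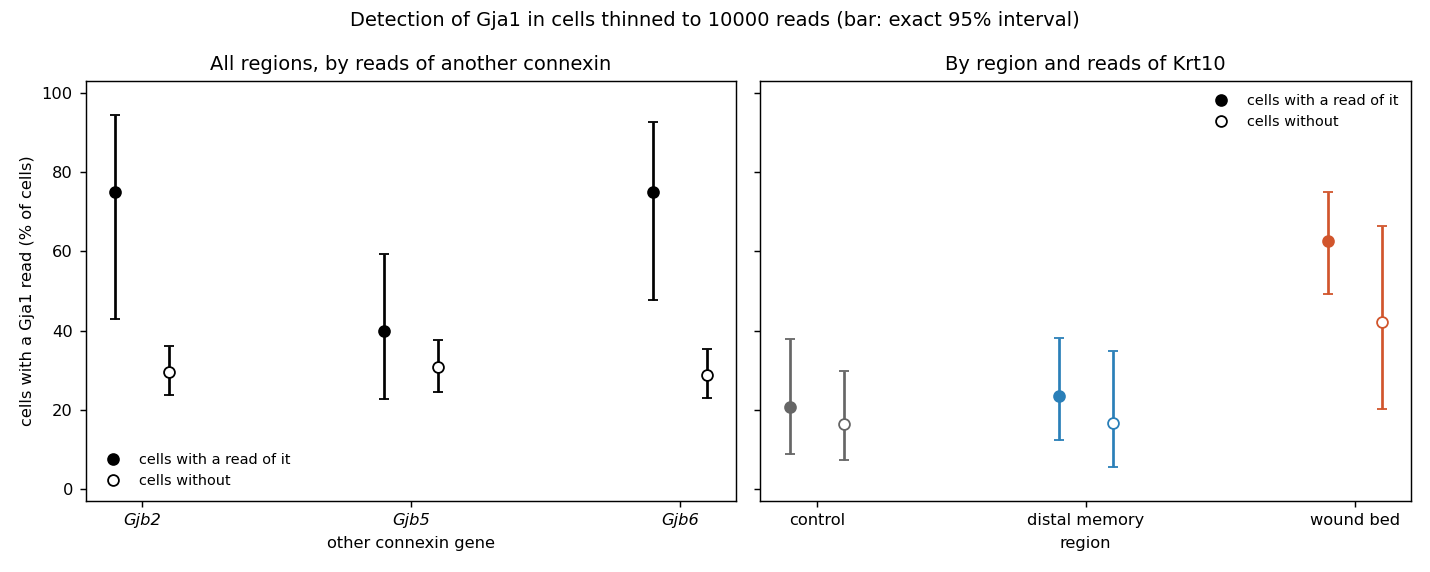
Percentage of cells with a Gja1 read at 10000 reads per cell, with exact 95% intervals: left, cells with (filled) and without (open) a read of another connexin, all regions; right, cells with and without a read of Krt10 in each region. Gja1 was in 75% of cells with Gjb2 or with Gjb6 and in 40% of cells with Gjb5, and wound bed cells without Krt10 (42.1%) lay above control cells without it (16.3%).

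The connexins differed in the other epidermal genes read in the same cells. Krt10 is a keratin of differentiating suprabasal cells, Krt15 of basal cells, and Krt6a of wounded epidermis and of the hair follicle. Gjb5 was in 25 of 140 cells with Krt10 (17.9%, 11.9 to 25.2%) and 5 of 98 without (5.1%, 1.7 to 11.5%). The 5 were all control cells, since 0 of 30 distal and 0 of 19 wound bed cells without Krt10 had Gjb5. It was in 5.3% of cells with Krt15 (2.2 to 10.7%) and 21.5% of cells without (14.1 to 30.5%), and in 3.3% of cells with Krt6a (0.4 to 11.3%) and 15.8% without (10.8 to 22%). In control the split by Krt10 was small, as Gjb5 was in 5 of 34 cells with it (14.7%, 4.95 to 31.1%) and 5 of 49 without (10.2%, 3.4 to 22.2%), and in batch 1 in 0 of 10 and 2 of 18. By Krt10, Gjb2 was in 6.4% of cells with it and 3.1% without, and Gjb6 in 8.6% and 4.1%, with overlapping intervals for both. Gjb6 was also in fewer cells with Krt15 (3.8%, 1.3 to 8.7%) than without (10.3%, 5.2 to 17.7%), again with overlapping intervals. These splits are over all regions, and 13 of the 16 thinned cells with Gjb6 were wound bed cells. Krt6a was the keratin by which the order of Gjb2 and Gjb6 differed from that of Gjb5. In the wound bed Gjb2 was in 6 of 29 cells with Krt6a (20.7%) and 1 of 49 without (2%), and Gjb6 in 8 of 29 (27.6%, 12.7 to 47.2%) and 5 of 49 (10.2%, 3.4 to 22.2%), where the intervals overlapped.

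Gja1 in the wound bed was read both with and without Krt10. With Krt10 it was in 37 of 59 wound bed cells (62.7%, 49.1 to 75%), in 11 of 47 distal cells (23.4%, 12.3 to 38%) and, in control, 7 of 34 (20.6%, 8.7 to 37.9%). Without Krt10 it was in 8 of 19 (42.1%, 20.3 to 66.5%), 5 of 30 (16.7%, 5.6 to 34.7%) and 8 of 49 (16.3%, 7.3 to 29.7%). The wound bed was highest in both classes, though the intervals overlapped among cells without Krt10. By Krt6a, Gja1 was in 29 of 61 cells with it (47.5%, 34.6 to 60.7%) and 47 of 177 without (26.6%, 20.2 to 33.7%). With Krt6a it was in 20 of 29 wound bed, 3 of 16 distal and 6 of 16 control cells. Without Krt6a it was in 25 of 49, 13 of 61 and 9 of 67. By Krt15, Gja1 was in 26.7% of cells with it (19.4 to 35.2%) and 38.3% without (29.1 to 48.2%), with overlapping intervals. The suprabasal marker list moved with region too. Its 11 genes summed to 33276 and 25656 CPM in wound bed plates, 15003 and 13265 in control plates, and 19871 and 9863 in distal plates. Flg was at 0 in 4 plates and Lor in 2, and by the size rule 2 of its 8 considered genes stood higher in the wound bed than in control, and 1 stood lower, beside 7.83% and 8.24% of all genes considered. The 9 measured genes of the wound keratinocyte list summed to 1056 and 836 CPM in wound bed plates, 448 and 497 in distal plates and 153 and 179 in control plates. Of these genes 4 and 2 were at 0 in control plates, 3 and 3 in wound bed plates and 2 and 2 in distal plates, with Mmp9 and Itga5 at 0 in all control and wound bed plates. Against control, 2 of its 4 considered genes stood higher in the wound bed. The upper hair follicle list of 12 genes summed to 16704 and 28763 CPM in control, 4316 and 6937 in distal cells and 2365 and 12829 in the wound bed, where 6 of its 10 considered genes were lower than in control, beside 8.24% of all genes. In the cell cycle list, 3 of 7 considered genes were higher in the wound bed than in control, Mki67 (1.56 and 1.69), Top2a (1.30 and 3.51) and Birc5 (1.97 and 1.62), beside 7.83% of all genes. The list as a whole did not rise in batch 1, as its sum was 1199 CPM in the wound bed and 1244 in control and its median log2 ratio -0.51. In batch 2 the sums were 1783 and 535 CPM and the median was 1.69. In the same comparison 1 of 10 basal and 1 of 4 sebaceous gland genes were lower, beside 8.24% of all genes. The part of these lists in the levels of Gja1 and Gjb6 was not tested beyond the split by Krt10 and Krt6a.

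Gja1 was also split by reads of Stfa1, a stefin of the wound bed cells, and of Ly6a, which encodes the sorted Sca1. In the wound bed Gja1 was in 28 of 40 cells with Stfa1 (70%, 53.5 to 83.4%) and 17 of 38 without (44.7%, 28.6 to 61.7%). With Ly6a it was in 33 of 53 (62.3%, 47.9 to 75.2%) and without in 12 of 25 (48%, 27.8 to 68.7%). The intervals overlapped in both splits. Among control cells Gja1 was in 18.2% of those with Ly6a and 18% of those without.

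For each connexin, genes were ranked by the mean over plates of Spearman's rho with it across the thinned cells of a plate, among 1053 or 1054 genes read in at least 25% of cells. For Gjb5 the first were Fabp5, a fatty acid binding protein of keratinocytes (0.39, from 0.28 to 0.63 over 6 plates), and Stfa1 (0.34, 0.12 to 0.67), then Fam25c, Mt4 and Rab25 (each 0.32). Mt4 is a metallothionein of differentiating epithelium and Rab25 an epithelial trafficking protein. Gja1 had Eif2s2, a translation initiation factor, first (0.26, 0.15 to 0.45), then Cd24a (0.25), Ndufab1 (0.22), Sumo3 (0.22) and Tspan3 (0.21). Gjb2 was followed by Park7 (0.26), Gpi1 (0.26), Mt4 (0.25), Api5 (0.24) and Rbm25 (0.23), and Gjb6, over the 4 plates with reads, by Esd (0.28), Snrpb2 (0.25), Nop58 (0.25), Bnip3l (0.24) and Stfa1 (0.23). The median gene stood near 0 for each connexin (0.02 for Gja1 and Gjb5). Several genes given without a range fell below 0 in a plate, such as Rab25 (-0.11), Cd24a (-0.14) and Nop58 (-0.15). At 10000 reads Gjb5 was in 2 cells of control batch 1, and Gjb2 in 1. In counts this sparse all these values are weak, though highest for Gjb5, and they share plate and depth.

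Proteins that bind connexins or govern their turnover were taken as a list. It held 19 genes, such as Tjp1, a scaffold that binds connexin 43, and the kinases Src and Mapk3, and 18 had a row. For wound bed against control cells 14 were considered and none met the size rule, where 7.83% of all genes were higher and 8.24% lower. The medians were -0.93 and -0.23, against 0.03 and -0.03 over all genes considered. For distal against control cells 15 were considered and none met it, where 8.07% of all genes were higher and 6.09% lower, with medians of -0.26 and -0.05 beside 0.23 and -0.07. Distal cells against the wound bed had 1 of 15 as higher, the kinase Mapk3 (2.50 and 1.77), which rested on 59 and 96 distal reads and on 1 and 24 in the wound bed. That list's medians were 0.57 and -0.40, beside 0.25 and -0.02 for all genes, of which 9.59% were higher by the rule. Genes of tight junctions, which seal the contacts between epidermal cells, numbered 9 in the table. For the wound bed against control, 1 of 5 considered was lower, Cldn1 (-2.65 and -1.28), the claudin of the epidermal barrier, where 8.24% of all genes were lower. Against control, distal cells had 1 of 6 as higher, Marveld2, with 10 and 27 reads against 0 and 16, where 8.07% of all genes were higher.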

How the data were processed

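The authors deposited a table of whole-number read counts per gene and cell, per the file header. Salmon 0.13.1, Seurat, R 4.0.3 and the build mm10 (GRCm38) are named in the submitters' processing notes without a role or order, and how transcript estimates became whole gene counts is not given in the sources used here. All 250 columns matched a label. From these counts, reads were summed per plate and normalized by TMM with edgeR (version 4.0.16, under R 4.3.3). Then log2 ratios of CPM plus 1 were taken within each batch. Total counts in place of TMM would shift all ratios by 0.39 and -0.12 (wound bed against control), -0.15 and -0.02 (distal against control) and -0.54 and 0.10 (distal against wound bed). The computation was tested on simulated data. Cells were thinned without replacement to 10000 reads with a fixed seed. No deposited cell was left out otherwise, no doublets were called and no free RNA was subtracted. Reads between close connexin genes may be split by the authors' counting, and strand use is not given.

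The members, gene lists and tests were chosen with earlier results of these data known. Named genes were the 4 members, considered connexins of the other list, up to 3 genes per list meeting the size rule, and the 5 genes most like each member, other than ribosomal, mitochondrial, predicted, pseudogene and spike-in rows. Lists other than those of connexins are given by their counts and sums. Some genes of the lists are not reported here. Gene models came from GENCODE M21, and RefSeq promoters (GRCm38.p6) matched all 4 members by symbol. Alternatives covered scaling, pseudocount, weight of cells, depth, cell quality, detection filter and batch. One alternative, without the cell richest in a gene in each plate, was chosen after seeing the data.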

Additional observations from a re-analysis of the deposited data

How the results depend on the processing

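The number of the 4 members that met the size rule was 1 for wound bed against control cells. It was 2 with total counts in place of TMM, with every cell weighted equally, without repeat-rich cells and without the richest cell of each plate, 3 in batch 2 alone and 0 at a detection filter of 25%. For distal against control cells it was 1, but 0 without repeat-rich cells and 2 without a detection filter or in batch 2 alone. For distal against wound bed cells it was 2, but 1 in thinned cells and 1 at the 25% filter. The cause was not tested, except that a stricter filter or thinning considers fewer genes. Over all genes, 928, 900 and 935 met the rule in these comparisons. This became 562, 377 and 494 in thinned cells, 1719, 1496 and 1731 in cells with at least 2000 genes, 246, 250 and 247 at the 25% filter, 1992, 1905 and 1987 without a filter, 4290, 4755 and 4196 in batch 1 alone and 3042, 3189 and 3874 in batch 2 alone.

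Of 144 log2 ratios of members (mean of the batches) under alternatives, 133 moved by no more than the spread between batches. The others included Gja1 for wound bed against control (2.18 without repeat-rich cells) and Gjb5 for distal against control (1.24 with 2000 genes and 1.68 without repeat-rich cells, against -0.78). The spread between batches was itself wide, as for Gja1 in distal against control cells (30.6-fold and 2.74-fold less). Staying within it therefore does not show that a ratio was stable. Of 96 shares of cells 85 stayed within their interval, and the 11 others included Gja1 in distal cells (20.8% thinned, 17.3% at 5 or more reads) and Gjb6 in the wound bed (46.2% of 26 cells with 2000 genes, 13.3% in batch 1). Of 30 co-detection shares 28 did, and Gjb6 in Gja1 cells was 7.69% in batch 1. Thinning to equal depth left 76 of 101 cells with a Gja1 read, 12 of 18 with Gjb2, 30 of 46 with Gjb5 and 16 of 22 with Gjb6. No paired analysis was possible because replicate numbers only name cells in accession order and no test between regions was made.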

Other observations

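Over all regions together, Gja1 was in a smaller share of cells with the duct keratin Krt79 of the upper hair follicle than without. At 10000 reads it was in 13.7% of cells with Krt79 (5.7 to 26.3%) and 36.9% of cells without (29.97 to 44.2%). Within regions, Gja1 was in 1 of 27 control, 0 of 10 distal and 6 of 14 wound bed cells with Krt79, and in 14 of 56, 16 of 67 and 39 of 64 without. The intervals overlapped in each region, as in control (0.09 to 19% against 14.4 to 38.4%). The wound bed share with Krt79 was 42.9%, and 27 of the 51 cells with Krt79 were control cells.

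Panx1, a pannexin channel gene and the only pannexin with a row, had 5 and 25 reads in the control plates, 18 and 53 in the distal plates and 4 and 433 in the wound bed plates. Of the 433 reads, 276 came from 1 cell, and 8 of 55 cells of that plate had a read. It was under the detection filter in every comparison.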
